A study of Rattus norvegicus with 4 samples.

Results

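A set of 38 genes, chosen by symbol, marks the endothelial cells of blood and lymphatic vessels and the mural cells around them, that is, pericytes and smooth muscle cells. They were measured in fat from behind the abdominal cavity (the retroperitoneal depot) of WNIN/Ob rats, a strain with lean and obese phenotypes. Of the 38, 36 had a row of their own among the 14506 genes tested, and Vwf and Ephb4 were not analysed here. The animals were males aged 4 months on stock diet with no treatment, 2 of each phenotype, with 1 array (Affymetrix Rat Gene ST) for each rat. The allele behind the phenotype is not named in the labels. Levels are log2 intensities. Differences are obese minus lean on the log2 scale, with the standard error (SE) and the adjusted p of limma's fit, and the threshold is an adjusted p under 0.05.

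The arrays carried the signal of fat, with all 8 adipocyte markers (Adipoq and Plin1 among them) measured. The log2 of their summed linear intensities was 14.03 and 14.01 in lean and 14.30 and 14.59 in obese fat. The brightest genes weigh most in such a sum. Of the 8, 5 were higher and 0 lower in both obese rats, beside 26.4% and 21.3% of all genes, and none passed. Lean rat 1 stood apart in 8 of 8 measured skeletal muscle markers, which were higher there than in lean rat 2 by a median of 5.74. Values of the vascular genes that moved most without this rat are therefore given with and without it. The array of lean rat 2 had a higher floor, with a median of 3.43 over 187 olfactory and vomeronasal receptor genes, against 2.77 to 2.87 on the other 3 arrays.

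Endothelial cells line every vessel and share junction proteins, Tie and VEGF receptors and transcription factors of the ETS and SOX families. Arteries, capillaries, veins and lymphatics each add genes of their own. Mural cells wrap the vessel and are recognised by contractile proteins and by receptors such as Notch3. In fat, capillaries bring lipids and hormones to adipocytes, and lymphatics drain fluid and carry immune cells.

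Promoter sequences are shown for 3 genes among those with the lowest endothelial values and for a contractile gene, because the data show whole groups of these genes lying on the same side of 0. Of the 38 genes, 23 were matched by symbol to RefSeq promoters of assembly GRCr8. The 250 bases before the annotated start are printed 5′ to 3′ on the gene's strand. In Emcn, Plvap and Ccl21, capitals mark AGGAAG on either strand, which holds the GGAA core bound by ETS factors such as Erg. In Acta2, capitals mark matches to the CArG box, bound by serum response factor, with 1 mismatch allowed.
Emcn (chr2:228564289-228564538, plus strand): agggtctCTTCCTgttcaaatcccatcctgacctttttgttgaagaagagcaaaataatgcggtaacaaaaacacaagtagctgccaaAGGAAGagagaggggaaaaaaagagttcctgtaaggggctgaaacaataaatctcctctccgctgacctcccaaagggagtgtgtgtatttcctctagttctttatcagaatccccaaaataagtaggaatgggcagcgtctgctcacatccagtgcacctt
Plvap (chr16:18231280-18231529, minus strand): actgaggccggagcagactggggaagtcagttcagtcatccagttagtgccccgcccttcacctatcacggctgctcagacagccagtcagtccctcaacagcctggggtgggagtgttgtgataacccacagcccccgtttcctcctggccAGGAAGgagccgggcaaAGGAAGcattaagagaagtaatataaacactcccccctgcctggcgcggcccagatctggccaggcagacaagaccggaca
Ccl21 (chr5:61777516-61777765, minus strand): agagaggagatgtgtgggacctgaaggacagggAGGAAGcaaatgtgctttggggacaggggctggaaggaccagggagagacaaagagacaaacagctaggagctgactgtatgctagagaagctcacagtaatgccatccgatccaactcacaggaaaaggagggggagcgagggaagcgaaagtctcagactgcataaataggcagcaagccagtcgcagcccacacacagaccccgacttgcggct
Acta2 (chr1:241172504-241172753, minus strand): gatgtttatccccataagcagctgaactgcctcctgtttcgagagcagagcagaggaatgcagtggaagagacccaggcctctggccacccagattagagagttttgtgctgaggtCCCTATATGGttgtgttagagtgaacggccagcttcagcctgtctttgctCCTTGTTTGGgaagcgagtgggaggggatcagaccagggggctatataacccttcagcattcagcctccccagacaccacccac
AGGAAG was found in 13 of the 23 promoters (56.5%), beside 29.5% of all 33469 promoters of this length. Emcn and Plvap held 2 matches each and Ccl21 held 1. Tie1 and Eng, whose values were above or near 0, held it as well, and Kdr and Pdpn did not. The Pdpn promoter is not printed, although the Pdpn difference (-0.92) was lower than that of Plvap (-0.89). The printed endothelial promoters are thus not a fair sample of the low genes. The CArG box without a mismatch was in 0 of the 23 and in 1.5% of all promoters, and with 1 mismatch in 6 of the 23 (26.1%) and in 18.7% of all. Acta2 held 2 such matches, CCCTATATGG and CCTTGTTTGG, and Emcn and Ccl21 held 1 each that is not in capitals. The other holders, Gja4, Kdr and Tie1, are endothelial genes. The other mural genes with a promoter, Cnn1, Cspg4 and Notch3, held no such match, so Acta2 does not stand for its group. No match to one motif overlapped a match to the other in the 4 printed sequences. A match describes letters in this window and is not evidence of a bound site.

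No vascular gene passed the threshold in either direction, where limma called 0.841% of all genes (0.772% higher and 0.0689% lower in obese fat). The lowest adjusted p was 0.143, for Selp. At an unadjusted p under 0.05, 9 of the 36 genes were lower and 1 was higher, beside 5.33% and 9.93% of all genes. The difference was below 0 for 31 of the 36, as it was for 49.9% of all genes. Both obese rats lay below both lean rats for 22 of the 36 (61.1%) and above them for 2, an order seen in 21.3% and 26.4% of all genes. The median difference was -0.38 over the vascular genes and 0.00047 over all genes. In bulk tissue, fewer cells of a type and less RNA per cell cannot be told apart. With 2 rats a group, the smallest p that a two-sided exact permutation test can give for any gene is 0.333.

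The role groups lay at different depths. Median differences were -0.22 for the 14 pan-endothelial genes and -0.27 for the 4 arterial genes. They were -0.71 for the 3 venous and leukocyte-capturing genes, -0.75 for the 4 lymphatic genes and -0.89 for the 3 capillary genes. The 6 pericyte and smooth muscle genes had a median of -1.102, which was -0.296 without lean rat 1. Every measured gene of the capillary, venous and lymphatic groups, 10 in all, had both obese rats below both lean rats. That order was seen in 21.3% of all genes. Sele and Prox1, among the 10, lay near background, and the role groups were set with earlier results known.

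**Figure D1:**
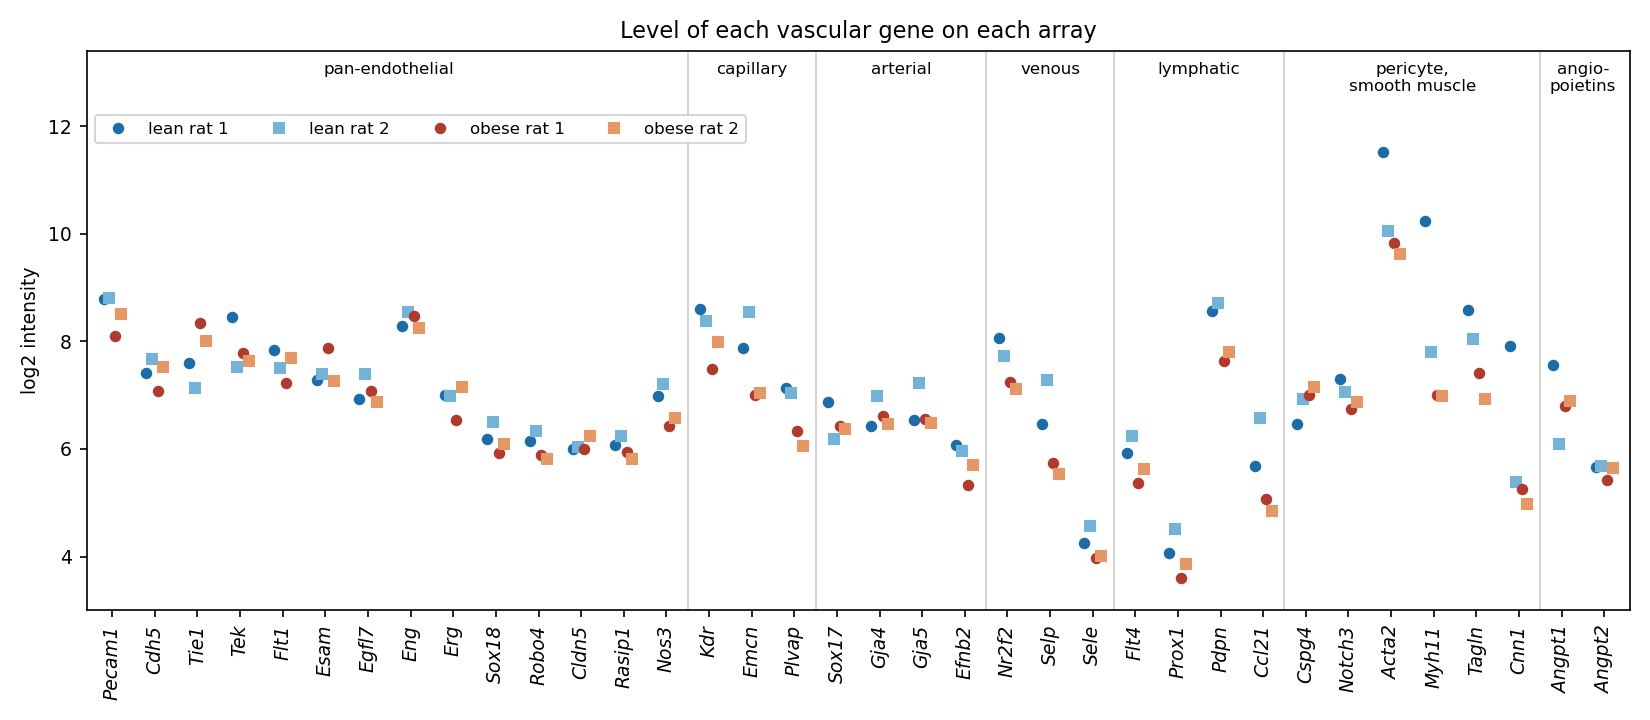
Log2 intensity of each of the 36 genes (x axis, grouped by role) on each array, with 1 point per rat. The capillary, venous and lymphatic genes have both obese rats below both lean rats, whereas lean rat 1 stands above the other 3 rats for Acta2, Myh11 and Cnn1.

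Emcn had the lowest value of the 3 capillary genes. It encodes endomucin, a sialoglycoprotein of capillary and venous endothelium, and read 7.88 and 8.54 in lean and 7.005 and 7.05 in obese fat. The obese rats were close to each other and 0.83 below the lower lean rat. The difference was -1.19 ± 0.32 (SE, n = 2 per group), or 2.28-fold more signal in lean fat, with limma's adjusted p at 0.158. Emcn passed the threshold without lean rat 1 (-1.52, adjusted p = 0.0358), a fit that called 2.87% of all genes lower and 7.45% in either direction. With a rat omitted, its group is 1 array, so each gene's own spread comes from the other group, here the closely matching obese pair. limma then moderates that spread toward a trend over all genes. A call in such a fit assumes that both groups vary alike and shows no stability.

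Plvap, the protein of the diaphragms across endothelial fenestrae and caveolae, read 7.14 and 7.04 in lean and 6.34 and 6.05 in obese fat (-0.89 ± 0.26, adjusted p = 0.196). The lean rats were close together and the groups stood 0.702 apart. Kdr, the main signalling receptor for VEGF-A, read 8.59 and 8.37 in lean and 7.49 and 7.99 in obese fat (-0.74 ± 0.31, adjusted p = 0.3203), again without overlap. Leaving out any 1 rat gave -1.52 to -0.86 for Emcn, -1.04 to -0.75 for Plvap and -0.99 to -0.49 for Kdr.

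A wider list of capillary genes of fat lay elsewhere. None of its 10 measured genes passed, and its median was 0.12. In both obese rats 1 gene was lower and 4 were higher, beside 21.3% and 26.4% of all genes. Gpihbp1, which anchors lipoprotein lipase on capillary endothelium, overlapped between phenotypes at 8.61 and 8.44 in lean and 8.82 and 8.10 in obese fat (-0.07 ± 0.34). Car4, a carbonic anhydrase of the capillary surface, overlapped too (0.08 ± 0.31). The fatty acid handling genes Fabp5 (1.07 ± 0.28, adjusted p = 0.143) and Cd36 (0.76 ± 0.35, adjusted p = 0.3501) had the smallest p of the list and were higher in both obese rats. Both are also expressed by adipocytes or macrophages. Fabp5 passed without lean rat 2 (1.33, adjusted p = 0.0368).

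Among the venous genes, Selp was lowest. It encodes P-selectin, which endothelium and platelets store and display to catch leukocytes. Selp read 6.47 and 7.28 in lean and 5.73 and 5.54 in obese fat, and the obese rats were at least 0.74 below the lean rats, which were themselves unequal. The difference was -1.24 ± 0.32, or 2.36-fold more signal in lean fat (adjusted p = 0.143). Selp was at -1.64 without lean rat 1 and at -0.83 without lean rat 2.

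Nr2f2, a transcription factor of venous and lymphatic identity, read 8.05 and 7.73 in lean and 7.25 and 7.12 in obese fat (-0.71 ± 0.29, adjusted p = 0.301), with no overlap. Sele, the inducible E-selectin, read 4.26 and 4.57 in lean and 3.96 and 4.01 in obese fat (-0.43 ± 0.23). These levels were under the 95th percentile of those receptor genes on all 4 arrays, so the Sele difference lies near background. On a wider list of venous and activation genes, none of 9 passed and the median was -0.07. The adhesion molecule genes Icam1 and Vcam1 were at 0.32 ± 0.28 and -0.07 ± 0.30, and Tll1, which encodes a metalloprotease, was at -0.37 ± 0.23.

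All 4 lymphatic genes were lower in both obese rats, beside 21.3% of all genes. Ccl21, the chemokine with which lymphatic endothelium draws dendritic cells and T cells, read 5.69 and 6.57 in lean and 5.07 and 4.85 in obese fat (-1.17 ± 0.32, adjusted p = 0.167). The obese rats were 0.62 or more below the lean rats, and lean rat 2 was the highest. Ccl21 passed in the fit without lean rat 1 (-1.61, adjusted p = 0.0292), where lean rat 2 alone stands for lean fat, and read -0.73 without lean rat 2. All 4 lymphatic genes were highest in lean rat 2, the array with the higher floor, and the part of that floor in their values was not tested. Pdpn, podoplanin, a membrane glycoprotein of lymphatic endothelium that mesothelium also makes, read 8.56 and 8.71 in lean and 7.63 and 7.796 in obese fat (-0.92 ± 0.29, adjusted p = 0.215). The phenotypes stood 0.77 apart, more than the gap between the rats of either.

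Flt4, the receptor for VEGF-C and VEGF-D, read 5.92 and 6.24 in lean and 5.37 and 5.63 in obese fat (-0.59 ± 0.25, adjusted p = 0.327). Prox1, the transcription factor that sets lymphatic identity, read 4.07 and 4.51 in lean and 3.602 and 3.87 in obese fat (-0.55 ± 0.25, adjusted p = 0.3497). Neither overlapped, but Prox1, like Sele, was under the receptor-gene percentile on all 4 arrays. On the wider lymphatic list none of 5 measured genes passed, and the median was -0.13. Lyve1, a hyaluronan receptor of lymphatics and of tissue macrophages, read 9.38 and 9.44 in lean and 8.78 and 9.22 in obese fat (-0.41 ± 0.31), and Reln was at -0.42 ± 0.22. Thy1, which fibroblasts also express, was at 1.35 ± 0.27 (adjusted p = 0.0743) and passed without lean rat 1 (1.37, adjusted p = 0.04101).

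Of 9 mesothelial markers 6 were measured, and none passed. The log2 of their summed intensities was 9.68 in lean rat 1, 8.04 in lean rat 2 and 7.52 and 7.803 in the obese rats. Of the 6, 4 were lower in both obese rats, beside 21.3% of all genes. Their median difference was -0.92, and -0.503 without lean rat 1. Lean rat 1 was well above lean rat 2 for Krt19 (8.53 against 4.62), Krt8 (7.52 against 5.55), Krt18 (6.76 against 5.61) and Gpm6a (6.19 against 5.58). The lean rats read 5.31 and 5.24 for Msln, 5.42 and 5.83 for Wt1, and 8.56 and 8.71 for Pdpn. The part of mesothelium in the Pdpn value was not tested.

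The 14 pan-endothelial genes were mixed, with 5 lower in both obese rats, 1 higher in both and 8 overlapping. Of all genes, 21.3% were lower and 26.4% higher in both obese rats. Pecam1, the junction protein CD31 that leukocytes and platelets carry as well, read 8.79 and 8.805 in lean and 8.11 and 8.50 in obese fat (-0.49 ± 0.30, adjusted p = 0.477). Nos3, the endothelial nitric oxide synthase, read 6.98 and 7.21 in lean and 6.43 and 6.58 in obese fat (-0.59 ± 0.27, adjusted p = 0.342) and had the lowest value of the group. Both genes kept the phenotypes apart. The transcription factor gene Sox18 (-0.33 ± 0.26), the guidance receptor gene Robo4 (-0.39 ± 0.24) and Rasip1, a regulator of vessel lumens (-0.28 ± 0.24), did so too, with adjusted p of 0.577, 0.483 and 0.625.

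Cdh5, the VE-cadherin of endothelial junctions, overlapped at 7.41 and 7.67 in lean and 7.08 and 7.52 in obese fat (-0.24 ± 0.30). Eng, a co-receptor for BMP ligands, overlapped as well, at 8.28 and 8.54 in lean and 8.47 and 8.25 in obese fat (-0.05 ± 0.30). Their 95% confidence intervals ran from -0.93 to 0.45 and from -0.74 to 0.64, so differences within those bounds could not be told from 0. The ETS factor gene Erg was at -0.15 ± 0.30, the secreted factor gene Egfl7 at -0.19 ± 0.29, and the junction genes Cldn5 and Esam at 0.101 ± 0.25 and 0.23 ± 0.31. Without lean rat 1, Cdh5 was at -0.37, Eng at -0.18 and Egfl7 at -0.42. Without lean rat 2 they were at -0.11, 0.09 and 0.05. On the wider endothelial list none of 20 measured genes passed. The median was -0.13 (-0.28 without lean rat 1 and -0.26 without lean rat 2). In both obese rats 8 were lower and 1 was higher, beside 21.3% and 26.4% of all genes. Ramp2, a partner of the adrenomedullin receptor, was among the 2 genes of that list with the smallest p (-0.52 ± 0.26, adjusted p = 0.385).

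Tie1 had the highest value of the 36 genes. It encodes a receptor that modulates signalling by its relative Tek, and read 7.59 and 7.13 in lean and 8.35 and 8.004 in obese fat. Both obese rats were above both lean rats, by at least 0.41. The difference was 0.82 ± 0.31, or 1.76-fold, with an adjusted p of 0.283 by limma, and it ran from 0.58 to 1.05 when any rat was left out.

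Tek, the angiopoietin receptor, read 8.46 and 7.52 in lean and 7.77 and 7.63 in obese fat (-0.28 ± 0.37), and lean rat 1 alone was high. The Tek value was 0.19 without lean rat 1 and -0.75 without lean rat 2. Angpt1, the ligand that activates Tek, read 7.55 and 6.09 in lean and 6.798 and 6.898 in obese fat (0.03 ± 0.45), with the obese rats between the lean rats. It was at 0.76 without lean rat 1 and -0.71 without lean rat 2, so no direction is given. Angpt2, which can block that signal, read 5.67 and 5.69 in lean and 5.43 and 5.65 in obese fat (-0.14 ± 0.24).

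Flt1, which also acts as a decoy for VEGF-A, read 7.84 and 7.50 in lean and 7.23 and 7.69 in obese fat and overlapped (-0.21 ± 0.31, and -0.04 without lean rat 1), unlike Kdr and Flt4. On the list of vascular ligands none of 15 measured genes passed, and the median was -0.13. Vegfa read 7.502 and 7.43 in lean and 6.95 and 7.17 in obese fat (-0.41 ± 0.27, adjusted p = 0.514), lower in both obese rats. Vegfb (0.396 ± 0.30) and the lymphatic ligand Vegfd (0.83 ± 0.42) were higher in both obese rats, with adjusted p of 0.573 and 0.383, and Vegfc overlapped (0.15 ± 0.28). Vegfd read 8.72 and 7.64 in lean and 8.75 and 9.27 in obese fat, so its groups stood only 0.03 apart. Without lean rat 1, Vegfb was at 0.19 and Vegfd at 1.37, and without lean rat 2 they were at 0.60 and 0.29. Bmp4, a ligand of the BMP family, had the smallest p of the list and read 6.55 and 6.498 in lean and 5.21 and 5.33 in obese fat (-1.25 ± 0.24, adjusted p = 0.06600). Bmp4 was at -1.23 without lean rat 1 and at -1.28 without lean rat 2. Pdgfd was at -0.61 ± 0.27.

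**Figure D2:**
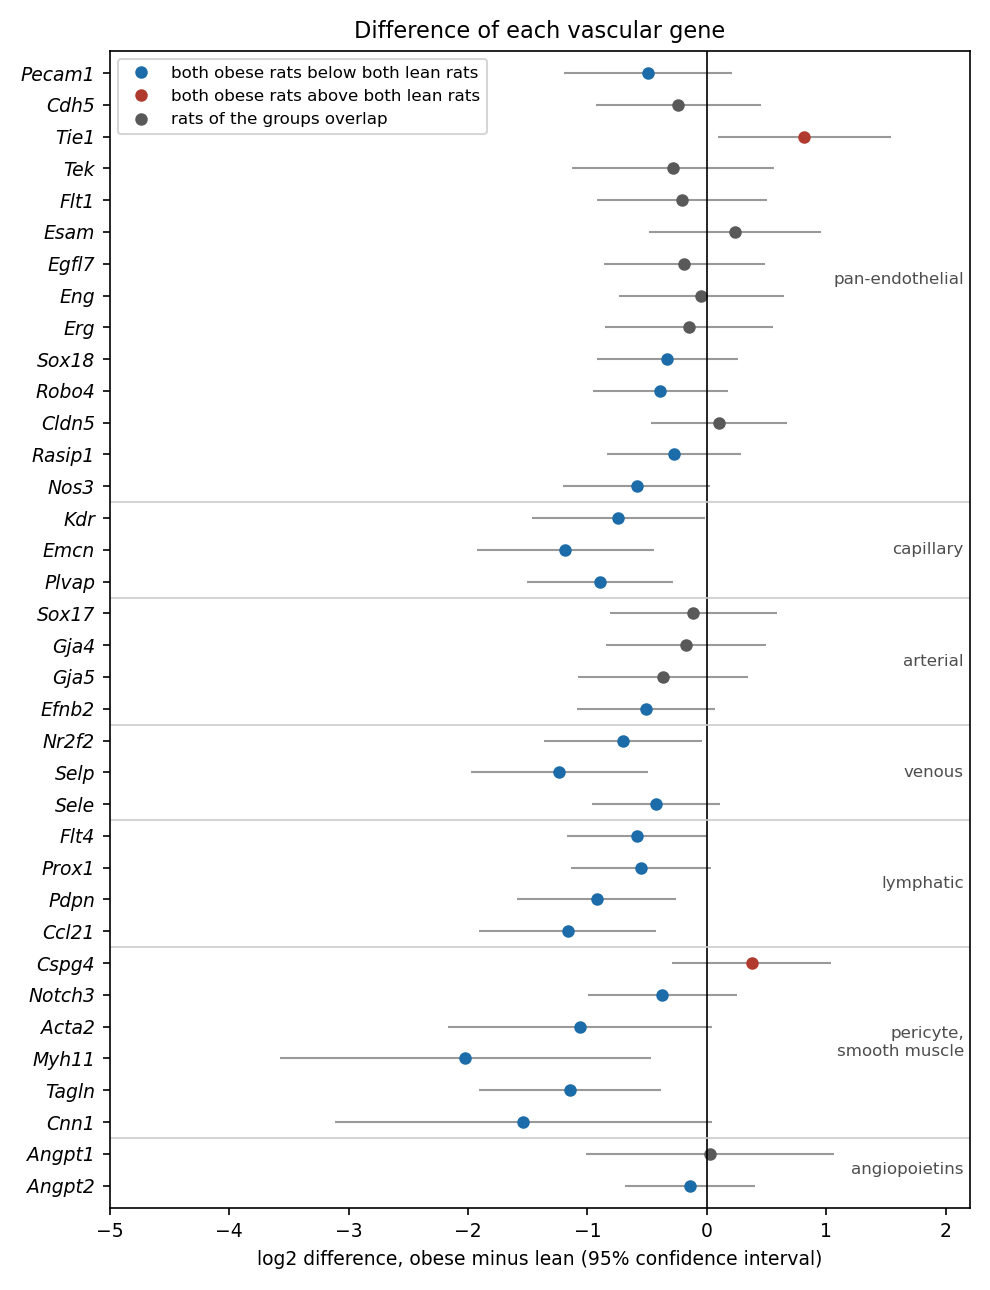
Log2 difference, obese minus lean, of each of the 36 genes (points) with the 95% confidence interval of limma's fit (lines), coloured by the order of the rats. Low values gather in the capillary, venous, lymphatic and smooth muscle groups, and Tie1 at 0.82 is the highest.

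The arterial genes lay near the pan-endothelial ones. Efnb2, the ephrin of arterial endothelium, read 6.07 and 5.97 in lean and 5.33 and 5.69 in obese fat (-0.51 ± 0.25, adjusted p = 0.375), with no overlap. The connexin genes Gja5 (-0.37 ± 0.31) and Gja4 (-0.17 ± 0.29) and the transcription factor gene Sox17 (-0.11 ± 0.30) overlapped. Lean rat 2 was the highest rat for both connexins and the lowest for Sox17. Omitting lean rat 1 gave -0.71 for Gja5, -0.45 for Gja4 and 0.23 for Sox17, and the arterial median was -0.45. With lean rat 2 omitted they were at -0.02, 0.10 and -0.46, and the median was -0.24. Of 14 arterial and Notch genes on a wider list none passed, and the median was -0.18. The chemokine receptor gene Cxcr4 (0.84 ± 0.26, adjusted p = 0.208), which leukocytes express, and the netrin receptor gene Unc5b (1.03 ± 0.33, adjusted p = 0.223) were higher in both obese rats. The Notch ligand gene Dll4 was at -0.09 ± 0.28 and the receptor gene Notch4 at -0.19 ± 0.30.

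Subtracting the pan-endothelial mean of the same array removes any shift that all endothelial genes share. Relative to it, the capillary mean was 0.66 and 0.76 in the lean rats and -0.104 and -0.07 in the obese rats, a shift of -0.79. The lymphatic mean went from -1.15 and -0.72 to -1.63 and -1.57, a shift of -0.66. The venous mean went from -0.95 and -0.705 to -1.402 and -1.54, a shift of -0.64. The arterial shift was smaller, at -0.14, and the pericyte and smooth muscle shift was -0.81, from 1.46 and 0.31 to 0.16 and -0.02. Most of this last shift came from lean rat 1 (1.46), since lean rat 2 (0.31) was closer to the obese rats. Both obese rats were below both lean rats in these 5 groups, and the angiopoietins overlapped. Only shifts between rats can be read here, since probes differ in brightness, and the shifts were not tested. The role groups were set with earlier results known and are not exclusive. Kdr, in the capillary group, is a VEGF receptor like Flt1 in the pan-endothelial group, and Emcn marks veins as well.

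**Figure D3:**
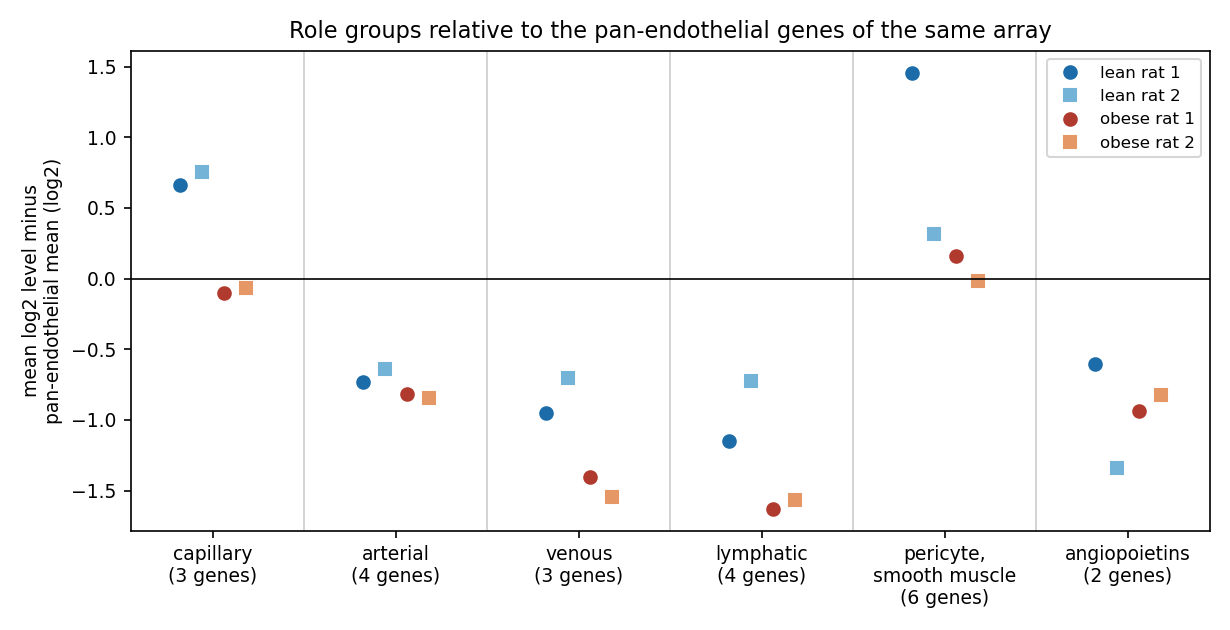
Mean log2 level of each role group minus the mean of the 14 pan-endothelial genes on the same array (y axis, log2), with 1 point per rat. Of the 6 groups, 5 have both obese rats below both lean rats, by little in the arterial group, the angiopoietins overlap, and lean rat 1 stands apart in the pericyte and smooth muscle group.

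The contractile genes Myh11 and Cnn1 had the lowest values of the 36, and lean rat 1 was the highest rat for these, Acta2 and Tagln. Myh11, the smooth muscle myosin heavy chain, read 10.23 and 7.799 in lean and 7.01 and 6.98 in obese fat (-2.02 ± 0.67, adjusted p = 0.233). Cnn1, calponin, read 7.92 and 5.38 in lean and 5.25 and 4.97 in obese fat (-1.54 ± 0.68, adjusted p = 0.335). Acta2, the smooth muscle alpha actin, read 11.52 and 10.05 in lean and 9.83 and 9.62 in obese fat (-1.06 ± 0.48, adjusted p = 0.342). Both obese rats were also below lean rat 2 for these genes, by 0.79, 0.13 and 0.22. Without lean rat 1 the differences were -0.805 for Myh11, -0.27 for Cnn1 and -0.32 for Acta2, and none passed.

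Without lean rat 2, Myh11 (-3.24), Cnn1 (-2.81) and Acta2 (-1.796) passed, with adjusted p of 0.00282, 0.00282 and 0.0401. That fit called 3.29% of all genes, 1.94% lower. Myh11 and Cnn1 passed without obese rat 1 (adjusted p = 0.0138 and 0.0294; 1.85% of all genes, 0.827% lower). Myh11 passed without obese rat 2 (adjusted p = 0.0136; 2.45% of all genes, 0.834% lower). All 3 of these fits keep lean rat 1. Tagln, the actin-binding protein SM22, was less uneven and read 8.58 and 8.04 in lean and 7.403 and 6.92 in obese fat (-1.14 ± 0.33, adjusted p = 0.187), with -0.87 without lean rat 1.

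Of 9 skeletal muscle markers, 8 were measured. The log2 of their summed intensities was 14.8 in lean rat 1 and from 8.57 to 9.14 in the other 3 rats. Des, Tpm1 and Tpm2, which striated muscle shares, were at -1.22, -2.06 and -2.404 with all rats and at 0.03, -0.88 and -0.17 without lean rat 1. Actg2, the actin of visceral smooth muscle, read 9.01 and 6.46 in lean and 5.91 and 5.44 in obese fat and was at -0.79 without lean rat 1. The part of skeletal muscle in the smooth muscle values was not tested.

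Some smooth muscle genes differed less between the lean rats. Myocd, the co-activator of serum response factor in smooth muscle, read 6.20 and 5.897 in lean and 4.803 and 5.28 in obese fat (-1.01 ± 0.27, adjusted p = 0.152). Kcnmb1, a potassium channel subunit of vascular smooth muscle, read 6.25 and 5.798 in lean and 4.84 and 5.19 in obese fat (-1.01 ± 0.27, adjusted p = 0.1498). Neither overlapped, and without lean rat 1 they were at -0.85 and -0.79. Srf itself was at -0.05 ± 0.26. Of 15 measured genes on the wider smooth muscle list none passed. In both obese rats 9 were lower and 1 was higher, beside 21.3% and 26.4% of all genes. The median was -1.01, and it was -0.54 without lean rat 1 and -1.24 without lean rat 2.

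**Figure D4:**
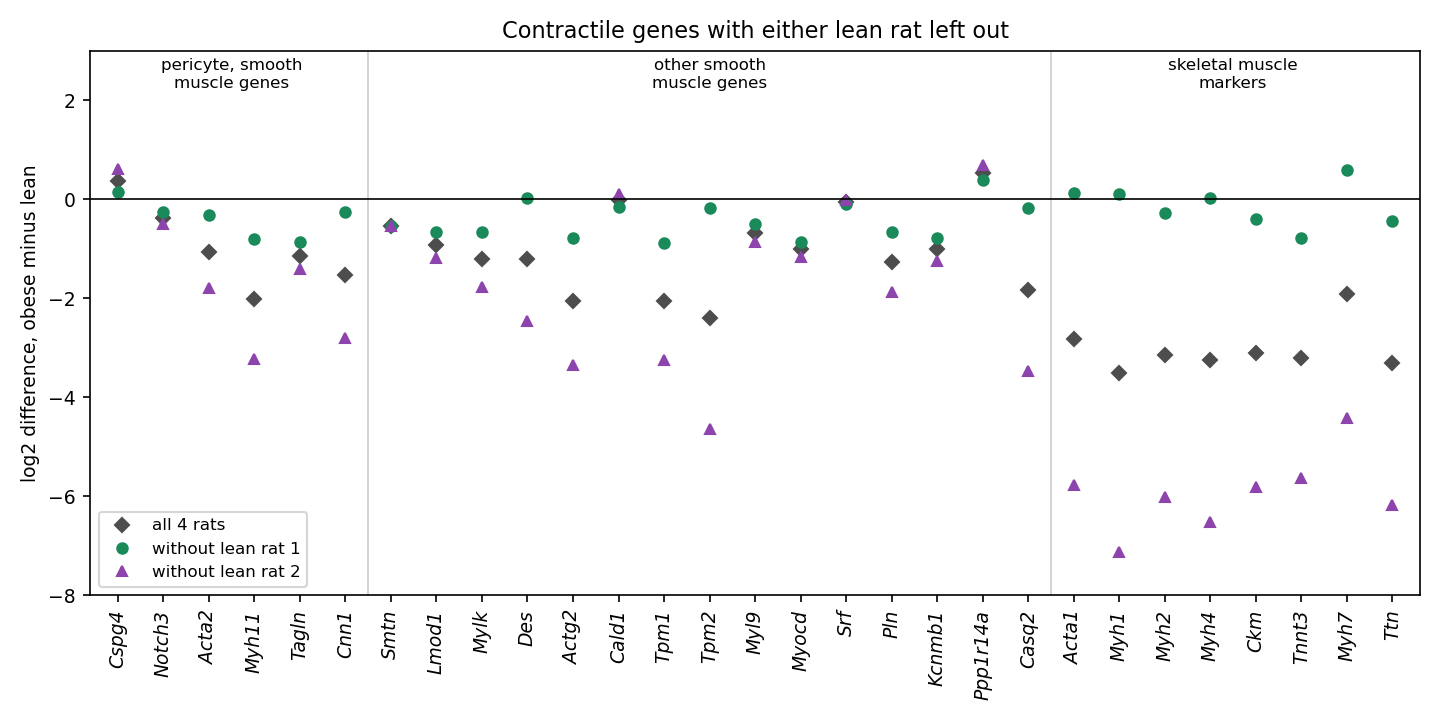
Log2 difference, obese minus lean (y axis), of pericyte and smooth muscle genes, other smooth muscle genes and skeletal muscle markers, with all 4 rats and without either lean rat. Without lean rat 1 the median of the skeletal muscle markers is -0.12, with Tnnt3 at -0.79, and the smooth muscle genes range from -0.88 for Tpm1 to 0.38 for Ppp1r14a.

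Pericyte genes differed in direction. Cspg4, the proteoglycan NG2 of pericytes, read 6.46 and 6.94 in lean and 6.996 and 7.15 in obese fat (0.37 ± 0.29, adjusted p = 0.574), higher in both obese rats, and was at 0.14 without lean rat 1. Notch3, the Notch receptor of mural cells, read 7.304 and 7.06 in lean and 6.75 and 6.87 in obese fat (-0.38 ± 0.27, adjusted p = 0.544), lower in both. On the wider pericyte list none of 11 measured genes passed, and the median was -0.04. Pdgfrb, the receptor with which pericytes answer PDGF-B, and the peptidase gene Anpep were higher in both obese rats, at 0.69 ± 0.29 and 1.07 ± 0.29 (adjusted p = 0.321 and 0.157), and fibroblasts express both. Rgs5, a G protein regulator of pericytes, overlapped at 10.25 and 11.21 in lean and 9.67 and 10.52 in obese fat (-0.64 ± 0.44). Rgs5 was at -1.12 without lean rat 1 and at -0.16 without lean rat 2.

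Markers of other cells were read on the same arrays. Of 8 macrophage markers, 3 were called higher and 7 were higher in both obese rats, beside 0.772% and 26.4% of all genes. The log2 of their summed intensities was 11.4 and 11.2 in lean against 13.36 and 12.6 in obese fat. The same value for red cell markers, 4 measured of 7, was 12.1 and 12.99 in lean and 12.1 and 10.4 in obese fat, and none passed. Their median difference was -1.30, and 3 of the 4 were lower in both obese rats, beside 21.3% of all genes. Of 7 fibroblast markers, 2 were higher and 2 lower in both obese rats, near the shares of all genes (26.4% and 21.3%). Their part in the vascular values was not tested.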

How the data were processed

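Per the labels' protocols, RNA came from 500 mg of frozen tissue per rat (Trizol), and 100 ng was labelled. The authors deposited 1 linear intensity for every row of each array. The submitters' processing notes name RMA and nothing further, and its version, like the build, is not given in the sources used here. RMA equalises arrays, so a change shared by most genes would be dampened. The spread of log2 intensity (interquartile range) was nonetheless 2.24 for lean rat 2 and 2.63 to 2.77 for the rest.

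Intensities were log2 transformed with no pseudocount. The platform annotation gave 1 symbol for 15310 of 29214 rows, several for 323 and none for 13581. Where a gene had several rows, the one with the highest mean stood for it. Each vascular gene had a single row, and 35 of the 36 gene IDs were found in RefSeq GRCr8. The phenotypes were fitted over all 4 arrays in limma 3.58.1 (R 4.3.3; lmFit, then eBayes with a variance trend), with no covariate and no filter on dim genes, and Benjamini-Hochberg adjustment covered all 14506 genes. The script was tested on simulated data. Each sample is a separate rat, and 4 arrays limit the precision.

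The vascular genes, role groups and lists were chosen with earlier results of these data known, so counts over them are descriptions and no set test was run. The text names every vascular gene and, from each wider list, called genes or else the 2 with the smallest p. Of these, 1 gene of the wider endothelial list is not reported here. Other genes were chosen after their values were seen. Alternatives covered a block for rat number, quantile normalization, median centring, an offset of 16 before the logarithm, removal of the dimmest 25% of genes, other variance models, array weights, the mean of a gene's rows, adjustment over all rows, and each rat left out. Plots used matplotlib 3.10.9.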

Additional observations from a re-analysis of the deposited data

How the results depend on the processing

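limma called 122 genes in all. The number was 327 with the rat number as a replicate block, 262 with a robust variance prior, 75 with quantile normalization and 72 with adjustment over all rows, and between 268 and 1081 when a rat was omitted. The cause was not tested. The 10 alternatives that kept all rats called 0 vascular genes, and their lowest adjusted p, 0.0557, came with the block. Rats that share a number did not deviate together (correlation of deviations 0.0203), so the numbers give no sign of pairing. Omitting a rat gave 1 to 3 called vascular genes, 6 different genes in all.

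The median over the 36 genes was -0.28 with median centring, which moved the median of all genes to 0.099. Quantile normalization gave a pan-endothelial median of -0.35 and an arterial median of -0.38, and median centring gave an arterial median of -0.17. Omitting a rat took the arterial median from -0.45 to -0.22 and the pericyte and smooth muscle median from -1.61 to -0.30. The medians of the other role groups moved by less than 1 SD between rats in the alternatives run. For the angiopoietins that SD was wide (0.37), and their median turned sign. It was -0.42 without lean rat 2 and 0.30 without lean rat 1.

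Of the 36 genes, 26 kept their sign in all 14 alternatives. With all rats, Eng turned under median centring (0.051) and Angpt1 under quantile normalization (-0.038). When a rat was omitted, values spanned 0 for Tek (-0.75 to 0.19), Flt1 (-0.43 to 0.019), Esam (-0.069 to 0.53), Egfl7 (-0.42 to 0.047), Eng (-0.18 to 0.086), Erg (-0.46 to 0.16), Cldn5 (-0.013 to 0.21), Sox17 (-0.46 to 0.23), Gja4 (-0.45 to 0.10) and Angpt1 (-0.71 to 0.76). Sele and Prox1 had no value once the dimmest 25% of genes were removed, and their signal over background limits both differences.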
